A study of Mus musculus with 6 samples.

Results

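The muscle myosin light chains and light chain kinases are 8 genes: *Myl1*, *Myl2*, *Myl3*, *Myl4*, *Mylpf*, *Myl6b*, *Mylk2* and *Mylk4*. They were taken by name as the slow, fast and embryonic light chains of striated muscle and the kinases of muscle that phosphorylate a light chain, out of 18089 genes in the expression table, and all 8 had counts in each of 6 libraries. The members were selected on their summed counts with the log2 fold changes between these genotypes already known, so their differences between genotypes are given as a description, without p-values.

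The libraries come from gastrocnemius muscle of male C57BL/6 mice aged 8 to 10 weeks, collected 7 days after hindlimb ischemia (HLI), in which the femoral artery was ligated and the segment between the ligatures excised. RNA of 3 wild-type (WT) mice and 3 GPR174-KO mice (Gpr174-/Y, lacking the lysophosphatidylserine receptor GPR174 in the whole animal) was sequenced as bulk tissue. Both groups had undergone surgery, and non-ischemic muscle was not analysed here. The comparison asks how loss of GPR174 changes gene expression in the ischemic muscle.

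Each myosin head carries 2 kinds of small subunit wrapped around its lever arm, an essential and a regulatory light chain. Fast fibres use *Myl1* (essential) and *Mylpf* (regulatory), slow fibres and the cardiac ventricle use *Myl3* (essential) and *Myl2* (regulatory), and developing muscle and the atrium use *Myl4* as essential chain. *Myl6b* encodes an essential chain found in slow muscle and in non-muscle tissue. *Mylk2* encodes the calmodulin-activated kinase that phosphorylates the regulatory chain in skeletal muscle, and *Mylk4* a related kinase of striated muscle. Phosphorylation of the regulatory chain potentiates force in fast fibres.

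The sequences just before the annotated starts of 3 members are shown to set a slow chain that was far lower in the knockout, a fast chain that was lower by less and a chain that was not called beside each other. They are RefSeq sequences of build GRCm38.p6, written 5′ to 3′, with capitals marking matches to the motifs searched. Of the 8 members, 7 had a window in the RefSeq table, and these 3 had one found within 50 bases of the start of their most abundant transcript. For *Mylk4* no annotated start was matched to that transcript, so its distance was not measured.
Myl3, chr9:110763428-110763645, plus strand: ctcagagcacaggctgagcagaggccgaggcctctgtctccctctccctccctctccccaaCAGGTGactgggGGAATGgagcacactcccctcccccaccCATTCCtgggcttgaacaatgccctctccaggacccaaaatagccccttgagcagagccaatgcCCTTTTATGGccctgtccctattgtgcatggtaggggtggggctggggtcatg
Mylpf, chr7:127211358-127211607, plus strand: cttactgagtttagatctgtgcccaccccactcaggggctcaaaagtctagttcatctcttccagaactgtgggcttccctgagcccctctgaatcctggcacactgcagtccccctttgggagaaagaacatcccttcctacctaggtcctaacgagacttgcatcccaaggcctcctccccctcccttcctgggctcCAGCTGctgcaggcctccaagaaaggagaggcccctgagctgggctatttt
Myl6b, chr10:128498686-128498935, minus strand: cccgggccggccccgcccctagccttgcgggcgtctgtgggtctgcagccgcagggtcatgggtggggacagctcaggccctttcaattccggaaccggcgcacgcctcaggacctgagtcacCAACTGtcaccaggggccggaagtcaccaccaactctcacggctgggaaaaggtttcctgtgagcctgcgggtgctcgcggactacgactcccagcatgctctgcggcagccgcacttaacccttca

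Both strands were searched for the E-box CANNTG and its form CAGCTG, which also counts as CANNTG, for the MCAT element CATTCC, for TATAAA, and for the CArG box and the MEF2 consensus. Positions are counted back from the RefSeq start, and the *Myl3* window stops 32 bases earlier, where a transcript annotated in GENCODE begins. The *Myl3* window held an E-box (CAGGTG, from -189 to -184), MCAT elements on both strands (GGAATG, from -177 to -172, and CATTCC, from -149 to -144) and a CArG box (CCTTTTATGG, from -85 to -76). The *Mylpf* window held an E-box (CAGCTG, from -51 to -46), and the *Myl6b* window an E-box (CAACTG, from -127 to -122). Among 32851 windows of 250 bases before RefSeq starts, 66.2% held CANNTG, 13.0% CAGCTG, 12.6% CATTCC, 12.4% TATAAA, 1.47% a CArG box and 0.508% the MEF2 consensus. An E-box was therefore present in these windows as in most of the windows searched, and the CArG box of *Myl3* was the rarest of the matches. GC content was 61.0% in the *Myl3* window, 56.4% in that of *Mylpf* and 66.0% in that of *Myl6b*.

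The libraries held 18417077 to 19394469 counts, estimated reads summed per gene. Values are CPM, counts scaled to a common library size by the TMM method, and differences are log2 fold changes, GPR174-KO over WT. The standard error (SE) beside them was derived as the size of the log2 fold change over the square root of edgeR's quasi-likelihood F statistic. The targeted gene *Gpr174* had 2 to 8 counts per WT library and 0 to 1 in the knockout. Among 5403 genes with at least 500 counts in every library, replicate 2 lay between replicates 1 and 3 in 81.6% in WT and 73.2% in GPR174-KO, and this was so for 8 of the 8 members in each group. Independent libraries would give 33.3% on average. The origin of this order was not tested, and the standard errors and p-values take the libraries as independent. Of the marker lists, 13 of 13 fast fibre genes were lower in GPR174-KO (summed CPM 85006 to 138138 in WT, 37492 to 39850.4 in GPR174-KO), 6 of 6 macrophage genes were higher (1066 to 1518, and 2514 to 2521), and 5 of 5 endothelial genes were lower (769 to 931, and 479.9 to 544). Calls here are by edgeR's quasi-likelihood test at adjusted p under 0.05, by which 27.0% of all genes tested were higher and 27.6% lower. Of 6 smooth muscle and pericyte genes 2 were higher and 2 lower (524 to 639, and 900.1 to 1035). The higher were *Acta2* (225 to 331, and 569 to 686) and *Tagln* (31.2 to 57.2, and 84.6 to 92.0). The lower were *Myh11* (28.4 to 32.8, and 21.4 to 23.9) and *Lmod1* (6.97 to 8.09, and 5.16 to 5.45), so the sum mainly follows *Acta2*. The 5 cardiac genes in the table summed to 1.68 to 2.19 CPM in WT and 1.58 to 2.12 in GPR174-KO, with none at 0 in all libraries, and 1 of them had enough counts to be tested and did not pass. The part of these other cells in the values below was not tested. In bulk tissue, fewer cells of a type and less RNA per cell cannot be told apart.

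The slow light chains differed most between the genotypes. *Myl2*, the slow regulatory chain, stood at 63.1, 50.2 and 37.6 CPM in WT replicates 1, 2 and 3 and at 2.05, 2.59 and 3.02 CPM in GPR174-KO replicates 1, 2 and 3. *Myl3*, the slow essential chain, stood at 56.8, 47.0 and 33.6 CPM in WT and at 2.05, 2.50 and 3.35 CPM in GPR174-KO. For each of these genes the highest knockout library was far below the lowest WT library. The estimated counts behind the knockout values were 43, 55 and 65 for *Myl2* and 43, 53 and 72 for *Myl3*. The log2 fold change was -4.29 (SE 0.24) for *Myl2*, a level 19.6 times higher in WT, and -4.11 (SE 0.26) for *Myl3*, 17.3 times higher in WT. Within a group the highest library exceeded the lowest 1.68 times in WT and 1.47 times in GPR174-KO for *Myl2*, and 1.69 and 1.63 times for *Myl3*.

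The fast light chains were among the most abundant transcripts of the muscle and were lower in the knockout by a smaller factor. *Myl1*, the fast essential chain, stood at 19221, 17949 and 16127 CPM in WT and at 7965, 7399 and 6569 CPM in GPR174-KO. *Mylpf*, the fast regulatory chain, stood at 14498, 13332 and 11589.8 CPM in WT and at 6197, 5515 and 4547 CPM in GPR174-KO. The groups did not overlap for either gene. The log2 fold change was -1.28 for both, with an SE of 0.14 for *Myl1* and 0.16 for *Mylpf*, so that WT exceeded GPR174-KO 2.43 times and 2.42 times. The 2 genes tracked each other in every library: in TPM, a measure of transcript abundance that is scaled for transcript length, *Myl1* was 1.02, 1.03 and 1.06 times *Mylpf* in WT and 0.983, 1.03 and 1.13 times in GPR174-KO, and these ratios overlapped between groups.

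*Myl4*, the embryonic and atrial essential chain, was the one member that passed in the other direction. It stood at 319, 389 and 491 CPM in WT and at 754, 682 and 587 CPM in GPR174-KO, so each knockout library was above each WT library. The log2 fold change was 0.75 (SE 0.17), a level 1.69 times higher in GPR174-KO. *Myl6b* stood at 53.6, 86.6 and 129 CPM in WT and at 118, 106 and 91.1 CPM in GPR174-KO. Its groups overlapped, the WT libraries differed 2.41 times among themselves, and the log2 fold change of 0.22 (SE 0.29) was not past the threshold.

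**Figure D1:**
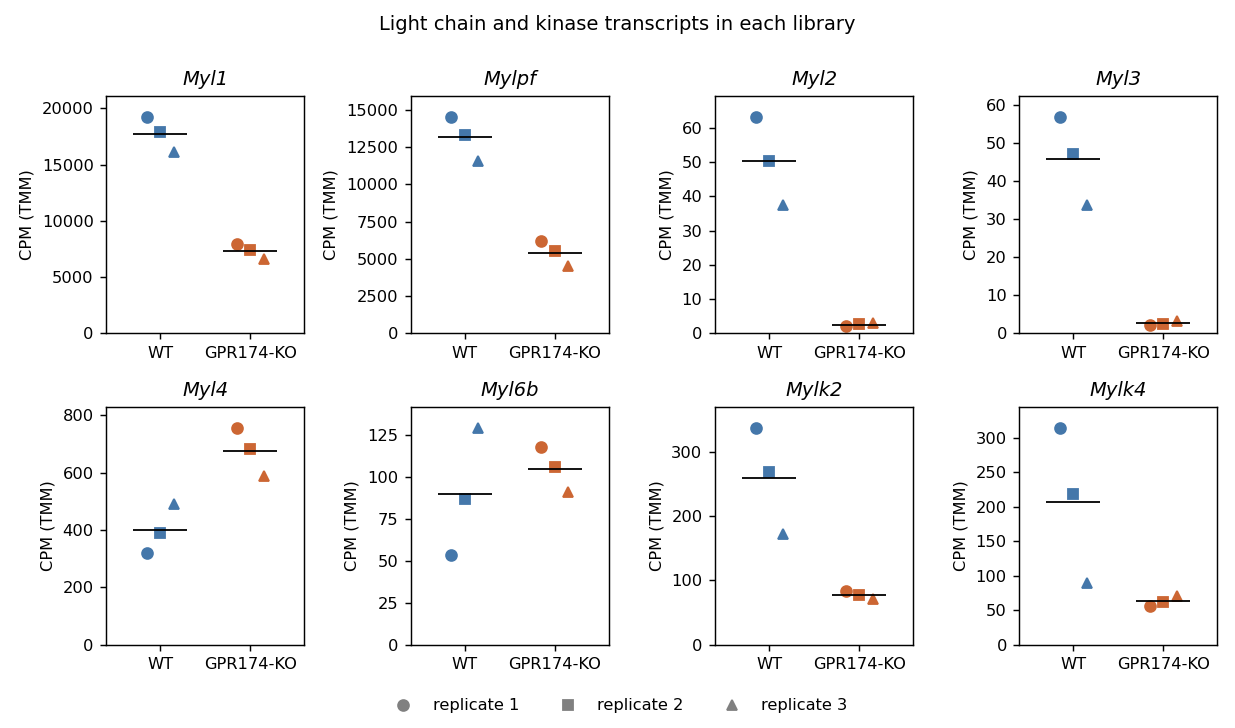
Level of each light chain and kinase (CPM after TMM scaling, linear axes starting at 0) in the 3 WT and 3 GPR174-KO libraries, with the shape of a point giving the replicate number and a line the group mean. *Myl2* and *Myl3* sit near 0 in GPR174-KO (2.05 to 3.35 CPM), *Myl4* is higher in the knockout, and the groups of *Myl6b* overlap.

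Both kinases were lower in the knockout. *Mylk2*, the skeletal muscle light chain kinase, stood at 336, 269 and 172 CPM in WT and at 83.1, 76.6 and 70.6 CPM in GPR174-KO, a log2 fold change of -1.76 (SE 0.23), or 3.38 times higher in WT. *Mylk4* stood at 314, 219 and 89.5 CPM in WT and at 55.5, 62.1 and 70.4 CPM in GPR174-KO, a log2 fold change of -1.73 (SE 0.41), or 3.31 times higher in WT. The fold changes were close, but the WT spread was not: the highest WT library exceeded the lowest 1.96 times for *Mylk2* and 3.51 times for *Mylk4*, against 1.18 and 1.27 times in GPR174-KO. WT replicate 3, at 89.5 CPM of *Mylk4*, lay nearer to the knockout libraries than to WT replicate 2. Without it the log2 fold change of *Mylk4* was -2.08, and without WT replicate 1 it was -1.29.

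By edgeR's quasi-likelihood test with a Benjamini-Hochberg adjusted p under 0.05, 7 of the 8 members passed, 6 lower and 1 higher in GPR174-KO. Of 14395 genes tested, 54.6% passed, 27.6% lower and 27.0% higher. With an absolute log2 fold change above 1 as well, 6 of the 8 members passed, 6 lower and 0 higher, against 8.28% of all genes, 4.84% lower and 3.45% higher. WT and GPR174-KO values did not overlap for 7 of the 8 members, 6 lower and 1 higher, against 65.6% of all genes, 32.4% lower and 33.1% higher. Nothing is read from these counts, since the members were chosen with the comparison known. The median log2 fold change was -1.50 over the members, -1.28 without the slow chains *Myl2* and *Myl3*, and 0.00 over all genes tested. Scaling by total counts, which moved the median of all genes by 0.27, kept the sign of each member and brought *Myl1* to -1.01, *Mylpf* to -1.0, *Myl2* to -4.01, *Myl3* to -3.83, *Myl4* to 1.02, *Myl6b* to 0.48, *Mylk2* to -1.47 and *Mylk4* to -1.43.

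Levels can be set beside each other only per length, in TPM. In WT the order of mean TPM was *Myl1* at 34961 ± 1552 (SD, n = 3), *Mylpf* at 33777 ± 2172, *Myl4* at 801 ± 214, *Myl6b* at 159 ± 74.6, *Mylk2* at 157 ± 43.0, *Myl2* at 135 ± 29.0, *Myl3* at 90.3 ± 18.8 and *Mylk4* at 53.8 ± 27.2. *Myl1* and *Mylpf* held ranks 2 and 3 of all genes in this scale, their ranges overlapped, and both lay far above *Myl4*, whose range of 606 to 1029 TPM did not meet that of *Myl6b*. From *Myl6b* down, each neighbour in the order overlapped the next. In GPR174-KO the order was *Myl1* at 18875 ± 1041, *Mylpf* at 18123 ± 2210.3, *Myl4* at 1756 ± 161, *Myl6b* at 240.1 ± 23.1, *Mylk2* at 65.8 ± 5.12, *Mylk4* at 22.1 ± 3.14, *Myl2* at 9.04 ± 1.99 and *Myl3* at 6.90 ± 1.96. There *Myl1* overlapped *Mylpf* and *Myl2* overlapped *Myl3*, and the other neighbours stood apart. *Myl4* moved from rank 160 to rank 58 of all genes by mean TPM, *Myl2* from rank 928 to 9388 and *Myl3* from rank 1393 to 10110. The 8 members together made up 7.33, 7.07 and 6.63% of TPM in the WT libraries and 4.23, 3.96 and 3.54% in the knockout libraries.

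Shares within a library do not depend on library scaling. *Myl2* made up 0.458, 0.393 and 0.337% of the TPM of the striated regulatory chains (*Myl2* and *Mylpf*) in WT and 0.0353, 0.0484 and 0.0703% in GPR174-KO. *Myl3* made up 0.290, 0.257 and 0.205% of the TPM of the essential chains *Myl1*, *Myl3* and *Myl4* in WT and 0.0239, 0.0311 and 0.0467% in GPR174-KO. *Myl4* made up 1.63, 2.13 and 2.99% of the same sum in WT and 8.78, 8.52 and 8.20% in GPR174-KO. The slow shares were thus 7.72 and 7.39 times higher in WT, and the embryonic share was 3.77 times higher in GPR174-KO, with no overlap in any of the 3 shares. *Myl1* remained the main essential chain, at 97.5 ± 0.644% in WT and 91.5 ± 0.277% in GPR174-KO (SD, n = 3).

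**Figure D2:**
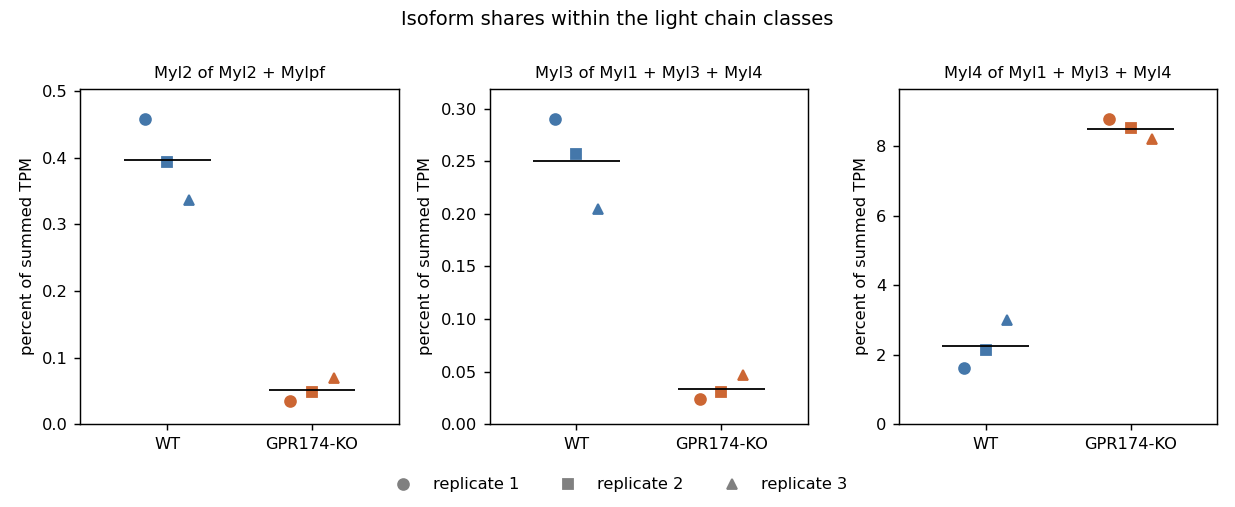
Share of the slow regulatory chain *Myl2*, the slow essential chain *Myl3* and the embryonic essential chain *Myl4* within their class (percent of summed TPM, linear axes starting at 0), by library, with lines for group means. The slow shares are at most 0.0703% in GPR174-KO and at least 0.205% in WT, and the *Myl4* share is at least 8.20% in GPR174-KO and at most 2.99% in WT.

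Light chains work in a complex with the myosin heavy chains, so each was set beside its partner. *Myh7*, the slow heavy chain, stood at 58.2, 40.0 and 17.0 CPM in WT and at 10.1, 13.4 and 19.0 CPM in GPR174-KO, and its groups overlapped. Its log2 fold change was -1.43 (SE 0.44, adjusted p = 0.0305 by edgeR's quasi-likelihood test with Benjamini-Hochberg adjustment), and it passed in 7 of 15 alternatives, with adjusted p-values from 0.00364 to 0.105. In TPM, *Myl2* was 10.4, 11.9 and 20.8 times *Myh7* in WT but 1.94, 1.79 and 1.51 times in GPR174-KO. *Myl3* was 6.81, 8.18 and 13.8 times *Myh7* in WT and 1.41, 1.30 and 1.23 times in GPR174-KO. The slow light chains were therefore lower in the knockout also per unit of slow heavy chain transcript, with no overlap of the groups. *Myl2* and *Myl3* kept closer to each other, at 1.53, 1.45 and 1.51 copies of *Myl2* per *Myl3* in TPM in WT and 1.37, 1.38 and 1.23 in GPR174-KO. This ratio was lower in the knockout, again without overlap of the groups.

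The fast heavy chains were also lower in the knockout. By edgeR's quasi-likelihood test with Benjamini-Hochberg adjustment, the log2 fold change was -2.80 (SE 0.22, adjusted p = 0.000620) for *Myh2*, of the oxidative fast fibres, -1.76 (SE 0.23, adjusted p = 0.00150) for *Myh1* and -1.49 (SE 0.38, adjusted p = 0.0149) for *Myh4*, of the fastest fibres. *Myh4* passed in 11 of 15 alternatives, with adjusted p-values from 5.61e-05 to 0.0598 by edgeR, DESeq2 or limma. It stood at 31348, 22677 and 10481 CPM in WT and at 6769.8, 7537 and 8714 CPM in GPR174-KO, without overlap. From WT replicate 1 to 3 *Myh4* fell, as *Myl1* and *Mylpf* did. *Myh1* (8144, 9763 and 11973 CPM) and *Myh2* (1593, 1844 and 2230.4 CPM) rose over the same WT replicates. Each of these log2 fold changes was larger in size than the -1.28 of *Myl1* and *Mylpf*, a difference that was not tested. Of the heavy chains of developing muscle, *Myh3* stood at 488, 1020.3 and 1803 CPM in WT and 2048, 1994 and 1909 CPM in GPR174-KO (log2 fold change 0.85, SE 0.41, adjusted p = 0.124 by edgeR), and passed in 3 of 15 alternatives. *Myh8* stood at 1677, 2104 and 2701 CPM in WT and 2777, 2525 and 2131 CPM in GPR174-KO (log2 fold change 0.20, SE 0.19, adjusted p = 0.412 by edgeR), and passed in 1 of 15 alternatives. *Myl4* in TPM was 1.35, 1.31 and 1.29 times *Myh8* in WT and 1.93, 1.92 and 1.96 times in GPR174-KO, 2 tight and separate groups. Against *Myh3* it was 4.55, 2.66 and 1.89 times in WT and 2.57, 2.38 and 2.14 times in GPR174-KO, which overlapped.

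**Figure D3:**
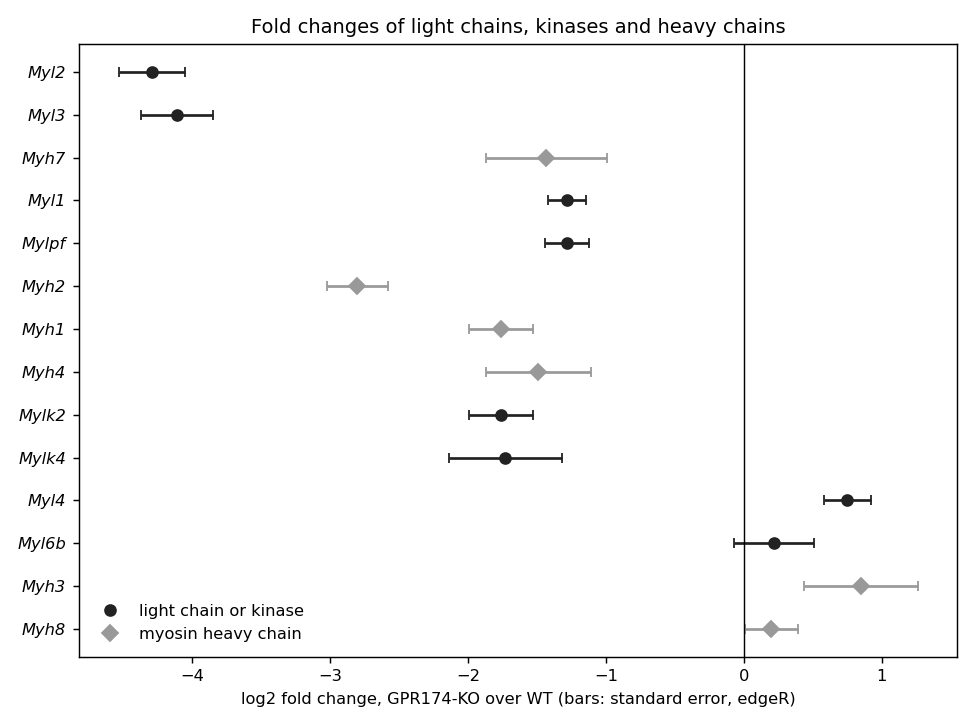
Log2 fold change, GPR174-KO over WT, of the 8 light chains and kinases (circles) and 6 myosin heavy chains (diamonds), with bars of 1 standard error derived from edgeR's F statistic. *Myl2* and *Myl3* lie near -4, beyond *Myh7* at -1.43, while *Myl1* and *Mylpf* both lie at -1.28 and *Myl4* at 0.75.

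The slow fibre list as a whole did not follow the slow light chains. Over WT replicates 1 to 3 *Myh7* fell, as *Myl2* and *Myl3* did, while every other gene of the list rose. Among these were *Tnni1* (249.5, 319 and 412 CPM) and *Tnnc1* (38.6, 54.3 and 79.3 CPM), and *Myh3* also rose. Whether the list measures slow fibre RNA alone was not tested. Of the 10 genes of the list, 2 were higher, 3 lower and 5 did not pass, with a median log2 fold change of 0.08. Over all genes tested, 27.0% were higher and 27.6% lower, for this list and those below. The slow list summed to 1638 to 2313 CPM in WT and 1947 to 2136 CPM in GPR174-KO. The split depended on the scaling. In TPM, each of the 5 that did not pass was higher in every GPR174-KO library than in any WT library. *Tnni1*, for example, stood at 399 to 729 TPM in WT and 914 to 1106 TPM in GPR174-KO. The 2 slow fibre genes with the largest change were *Ankrd2*, a stretch-responsive ankyrin repeat gene (log2 fold change -3.0, SE 0.14, adjusted p = 0.000289 by edgeR), and *Myh7*. The third lower gene was *Myoz2* (-1.1, SE 0.23, adjusted p = 0.00721 by edgeR). The 2 higher genes were *Tnnc1* (1.09, SE 0.23, adjusted p = 0.0079 by edgeR) and *Tpm3* (0.37, SE 0.09, adjusted p = 0.0145 by edgeR), both without overlap of the groups. The 13 fast fibre genes had a median of -1.49, with the largest changes in *Myh2* and in *Pvalb*, the calcium buffer of fast fibres (log2 fold change -2.34, SE 0.30, adjusted p = 0.00148 by edgeR). Of 10 genes of regenerating fibres and myoblasts 6 were higher, 0 were lower and 4 did not pass, with a median of 1.07. Among them *Mymx*, a fusion factor of myoblasts (log2 fold change 1.84, SE 0.23, adjusted p = 0.00147 by edgeR), and *Chrng*, the fetal acetylcholine receptor subunit (log2 fold change 1.68, SE 0.17, adjusted p = 0.000900 by edgeR), changed most.

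Each member was then expressed relative to the geometric mean CPM of the 13 fast fibre genes in the same library. On this log2 scale *Myl1* stood at 1.33, 1.43 and 1.68 in WT and at 1.88, 1.85 and 1.83 in GPR174-KO, and *Mylpf* at 0.93, 1.00 and 1.21 in WT and at 1.52, 1.43 and 1.30 in GPR174-KO. Both were 0.37 higher in the knockout without overlap, so they were lower by less than the list as a whole. With the summed CPM of the list as reference the groups overlapped for both. *Mylk2* (-0.05) and *Mylk4* (0.10) differed from the list by less than the spread between libraries, and their groups overlapped. *Myl4* was 2.42 higher in GPR174-KO relative to the fast fibre genes and *Myl6b* 1.96 higher, again without overlap, though *Myl6b* did not pass on its own. *Myl2* and *Myl3* were lower by more than the fast fibre genes, at -2.63 and -2.46. Relative to the 10 slow fibre genes, *Myl2* was lower by a log2 difference of -4.05, *Myl3* by -3.88, *Myl1* and *Mylpf* by -1.05, *Mylk2* by -1.47 and *Mylk4* by -1.32, the groups of *Mylk4* overlapping, whereas *Myl4* was higher by 1.00 and *Myl6b* by 0.54, with overlap. The slow fibre genes did not move together across the WT libraries, which limits this reference.

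**Figure D4:**
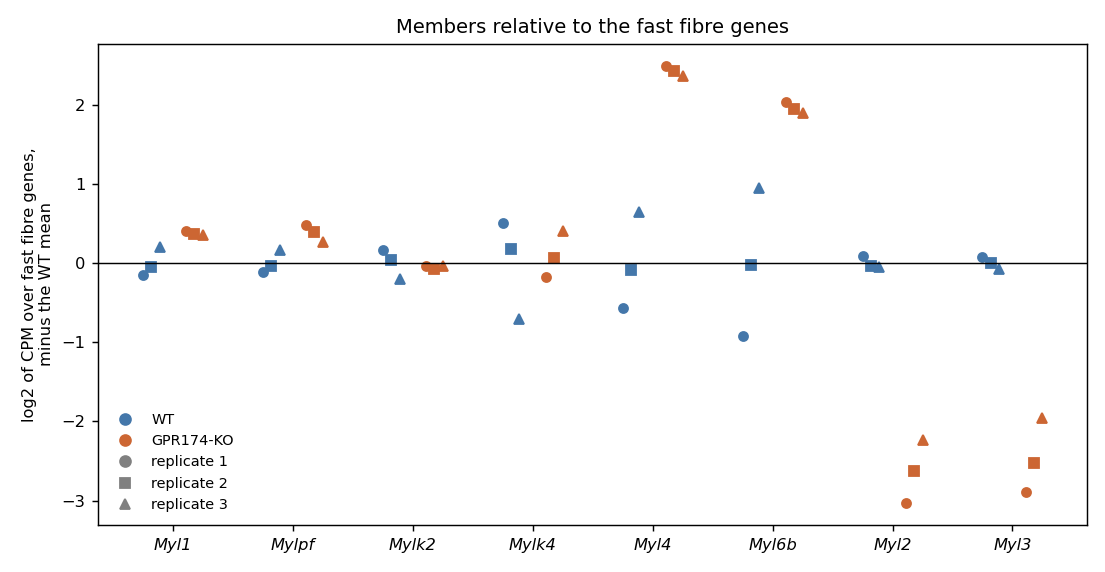
Level of each member relative to the geometric mean CPM of 13 fast fibre genes in the same library, as log2 minus the WT mean of that member, for each library. *Mylk2* and *Mylk4* overlap between groups around 0, *Myl1* and *Mylpf* lie 0.37 above WT, *Myl4* and *Myl6b* lie 2.42 and 1.96 above, and *Myl2* and *Myl3* lie at -2.63 and -2.46.

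Transcripts within a gene give a readout that the choice of members, which sums them, did not use. Shares of 13 transcripts with a mean of at least 2% of their gene's TPM were compared by a 2-sided exact permutation test, whose smallest possible p for 3 against 3 libraries is 0.1. Shares other than those of *Myl1* were looked at after the data were seen. *Myl1* makes 2 proteins from alternative first exons, MLC1f and the shorter MLC3f. The MLC1f transcript NM_021285.3 took 52.2, 54.2 and 58.0% of *Myl1* TPM in WT and 57.9, 55.1 and 50.1% in GPR174-KO, a difference of -0.468 percentage points (exact permutation p = 0.9, adjusted p = 0.975). The SD was 2.93 points in WT and 3.95 in GPR174-KO, and the difference ran from -2.22 to 1.67 points when 1 library was left out, so these libraries do not settle whether the balance of MLC1f and MLC3f differs. For *Mylpf*, NM_016754.5 took 56.5, 57.3 and 58.8% in WT and 62.0, 62.4 and 63.7% in GPR174-KO, 5.17 points higher and without overlap (exact permutation p = 0.1, adjusted p = 0.186). For *Myl4*, NM_001355755.1 took 81.4, 83.4 and 83.3% in WT and 85.4, 85.8 and 84.4% in GPR174-KO, also without overlap (exact permutation p = 0.1, adjusted p = 0.186).

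*Mylk2* showed the widest difference in transcript shares. Its main transcript NM_001081044.2 took 84.7, 84.8 and 83.9% of the gene's TPM in WT but 57.6, 65.1 and 73.0% in GPR174-KO. A RefSeq model transcript, XM_011239481.2, took 0.709, 0 and 1.92% in WT and 25.5, 18.8 and 10.1% in GPR174-KO. Its estimated reads were 26, 0 and 40 in WT and 333, 223 and 108 in GPR174-KO, so they were more numerous in the knockout although the gene as a whole was lower. The other listed transcript, XM_006499319.3, took 14.6, 15.2 and 14.2% in WT and 16.9, 16.1 and 16.9% in GPR174-KO. None of these 3 shares overlapped between groups (exact permutation p = 0.1, adjusted p = 0.186 for each), which does not pass 0.05 in a design of this size. Reads shared by transcripts of one gene are divided by estimation, and the part of that step in these shares was not tested.

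**Figure D5:**
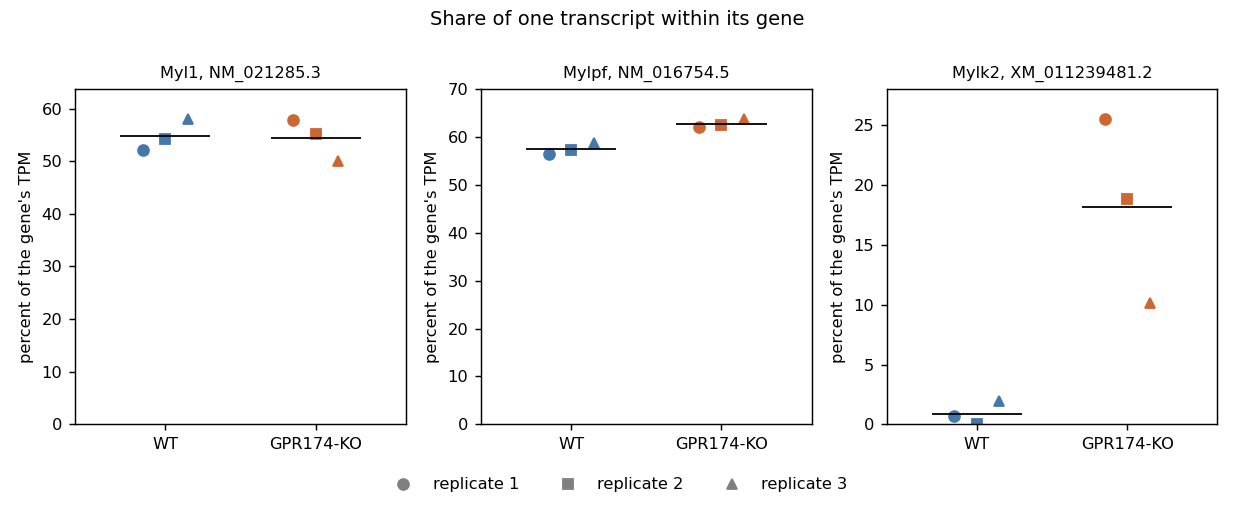
Share of 1 transcript of *Myl1* (the MLC1f form), *Mylpf* and *Mylk2* (a RefSeq model) within its gene, as percent of the gene's TPM on linear axes starting at 0, by library, with lines for group means. The *Myl1* share overlaps between groups, and the *Mylk2* transcript takes at most 1.92% in the WT libraries and at least 10.1% in the knockout libraries.

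The list of other light chain signaling genes holds the smooth muscle and non-muscle light chains, other light chain kinases and calmodulins. It also holds subunits of the phosphatase that reverses phosphorylation, and inhibitors of that phosphatase. Of 21 such genes listed, 19 were tested: 3 were higher, 3 lower and 13 did not pass, with a median log2 fold change of 0.01. Over all genes tested, 27.0% were higher and 27.6% lower. Higher by edgeR's quasi-likelihood test with Benjamini-Hochberg adjustment were *Ppp1r14b*, a phosphatase inhibitor (log2 fold change 0.78, SE 0.10, adjusted p = 0.00163), *Myl6*, the essential chain of smooth and non-muscle myosin (0.44, SE 0.10, adjusted p = 0.00923), and *Cit*, the citron kinase of cytokinesis (0.25, SE 0.06, adjusted p = 0.00907). *Cit* passed in 14 of 15 alternatives and not with the DESeq2 Wald test (adjusted p-values from 0.00109 to 0.0638). Lower by the same edgeR test were *Ppp1r12b*, the myosin phosphatase targeting subunit of striated muscle (-1.14, SE 0.06, adjusted p = 0.000312), *Ppp1r14c*, a phosphatase inhibitor (-0.71, SE 0.09, adjusted p = 0.00169), and *Ppp1cb*, the catalytic subunit (-0.34, SE 0.06, adjusted p = 0.00433, and from 3.36e-05 to 0.325 over its alternatives, 12 of 15 of which it passed, with a log2 fold change of -0.06 under total counts). *Ppp1r12b* stood at 422, 404 and 388 CPM in WT and 191, 182 and 176 CPM in GPR174-KO, so the striated muscle kinases and the striated muscle phosphatase subunit were both lower. *Mylk*, the smooth muscle and non-muscle kinase, stood at 57.2, 56.2 and 57.7 CPM in WT and 63.7, 62.1 and 59.3 CPM in GPR174-KO (log2 fold change 0.11, SE 0.05, adjusted p = 0.0813 by edgeR). The groups of *Mylk* did not overlap, and it passed in 4 of 15 alternatives (adjusted p-values from 0.00154 to 0.255 by edgeR, DESeq2 or limma), with a log2 fold change of 0.39 under total counts. *Myl9*, the smooth muscle regulatory chain, had a log2 fold change of 0.01 (SE 0.08, adjusted p = 0.938 by edgeR) and passed in 2 of 15 alternatives. *Mylk3*, the cardiac kinase, had at most 7 counts in a library and *Myl10* at most 3, and neither was tested. With total counts in place of TMM, 11 genes of this list were higher and 2 lower, as the whole distribution shifted.

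For each member the genes with the most similar pattern were sought among 13597 genes with a mean of at least 1 CPM, by the root mean square difference of log2 CPM, centred on WT, over the 6 libraries. The nearest were *Clec3b* (0.0218) and *Mlxipl* (0.0358) to *Myl1*, *Sypl2* (0.0508) and *Atp2b3* (0.0582) to *Mylpf*, *Rcn3* (0.0229) and *Dap* (0.0241) to *Myl4*, and *Paqr8* (0.0567) and *Scn3a* (0.102) to *Myl6b*. For the kinases they were *Phospho1* (0.0433) and *Lynx1* (0.0650) to *Mylk2*, and *Pfkfb1* (0.0598) and *Phkg1* (0.156) to *Mylk4*. *Myl2* and *Myl3* had the same nearest genes, *Aqp4* (0.343 and 0.237) and *Scn4b* (0.597 and 0.497), at a greater distance than for any other member. The distance of *Myl2* from *Myl3* was 0.133, less than from either of those genes, and that of *Myl1* from *Mylpf* 0.0534. *Aqp4*, the water channel of the fibre membrane, stood at 23.7, 17.3 and 9.61 CPM in WT and 0.860, 0.895 and 1.35 CPM in GPR174-KO. *Mylk2* and *Mylk4* were 0.321 apart.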

How the data were processed

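RNA of ischemic gastrocnemius from 3 WT and 3 GPR174-KO mice was sequenced on the BGISEQ-500 platform. The authors deposited expected counts, estimated reads per RefSeq transcript that need not be whole, for 58843 transcripts, without normalization. The deposited table also gives FPKM and TPM, scaled by the authors for transcript length and library size. The submitters' processing notes name HISAT2 2.0.4, Bowtie2 2.2.5, RSEM 1.2.12 and GRCm39; strand use is not given in the sources used here. Group averages in the table were not used, and 0 per-sample columns were left unmapped.

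Expected counts were summed per Entrez gene and rounded (18089 genes), and genotypes were compared with edgeR 4.0.16 in R 4.3.3 (TMM, its filter on low counts, robust quasi-likelihood test, Benjamini-Hochberg adjustment, adjusted p 0.05 and absolute log2 fold change 1). The study used DEGseq, which was not run here. The members and lists were chosen with earlier results of these data known. Named were all members, up to 3 genes per direction of the pathway list with *Mylk*, *Mylk3*, *Myl6* and *Myl9*, the 2 largest changes of 3 fibre lists, 6 heavy chains and the 2 nearest genes in pattern; further genes of the pathway list are given as counts. *Gpr174*, *Myl10*, *Acta2*, *Tagln*, *Myh11*, *Lmod1*, *Myoz2*, *Tnni1*, *Tnnc1* and *Tpm3* were named after their values were seen, and *Myl7* is not analysed here.

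As alternatives, the Wald test of DESeq2 1.42.0 was run, and edgeR was run with DESeq2's size factors, upper-quartile scaling and total-count scaling, without the filter and with a minimum of 10 counts per library; further alternatives were limma 3.58.1 on log2(FPKM + 1) and log2(FPKM + 0.1), a replicate block and leaving out each library. Shares were also computed from expected counts, and fibre references as summed CPM. On simulated data with 200 changed genes among 14395, edgeR recovered 100% of them. The simulated libraries were independent with a common dispersion of 0.00967, and only genes of higher level were changed. The order of replicates seen here was not simulated, so this recovery does not carry over to these libraries. The methods give n = 3 in each group, and replicates are taken here as separate mice. The p-values rest on the spread between these libraries only. Python 3.11.15 was used for the rest.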

Additional observations from a re-analysis of the deposited data

How the results depend on the processing

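Of 120 comparisons of a member's log2 fold change with an alternative, 119 kept direction and side of the threshold. The exception was *Myl6b*, not called, at -0.03 without WT replicate 1 and 0.59 without WT replicate 3. The members past the adjusted p numbered 7 in each of the 15 alternatives, and those past both thresholds 6, or 7 with total counts and both FPKM settings. With the replicate block, 6812 genes passed at any fold change, 1139 passed both thresholds, and 7 and 6 members did. Same-numbered libraries are different mice, and their deviations correlated at 0.0091, 0.00837 and -0.0231, so the block rests on a shared number only. Of the other calls named, the block ended those of *Myh7* (-1.33) and *Myh4* (-1.36).

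Genes past both thresholds numbered 1192, 645 with limma on log2(FPKM + 1), and 924 to 1826 when 1 library was left out, with 1826 without WT replicate 3. At any fold change 3891 genes were higher and 3972 lower, against 7303 and 2010 with total counts. The other pathway genes that were higher numbered 3, but 2 with the DESeq2 Wald test, 5 with upper-quartile scaling, 11 with total counts, 13 with log2(FPKM + 1) and 11 with log2(FPKM + 0.1), and 3 to 4 when 1 library was left out. Those lower numbered 3, and 3 to 5 when 1 library was left out, with 5 without WT replicate 3. The difference in the MLC1f share of *Myl1* ranged from -2.22 to 1.67 points when 1 library was left out, with 1.12 without WT replicate 3 and 1.67 without GPR174-KO replicate 3.

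Among values near 0, *Myl9* turned to -0.04 and -0.01 without WT replicates 1 and 2 and to -0.03 without GPR174-KO replicate 1, *Paqr8* to -0.11 and *Scn3a* to -0.02 without WT replicate 1 (highest 0.59 and 0.56, without WT replicate 3). Relative to the fast fibre genes, *Mylk2* turned to 0.0316 without WT replicate 1 (lowest -0.153), and *Mylk4* to -0.0380 with the summed list, -0.250 without WT replicate 3 and -0.0523 without GPR174-KO replicate 3 (highest 0.354). The causes were not tested. Depth limits *Mylk3* and *Myl10*, at most 7 counts, and gives *Myl2* and *Myl3* 43 to 72 counts in the knockout.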
